A study of Drosophila melanogaster with 6 samples.

Results

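The messenger RNA content of normal *Drosophila melanogaster* embryos 6 to 8 h old was described from the 3 arrays labelled wt, which carried w[1118], a white-eyed strain widely used as a genetic background. They were 3 of the 6 arrays in the series, and the other 3, from Insensitive mutants carrying insv[23B], gave no value here. Flies and ageing embryos were held at 25 °C, total RNA was extracted with Trizol from embryos, and biotin-labelled target was hybridised to Affymetrix Drosophila Genome 2.0 arrays, which read each transcript with 1 or more sets of short probes. The arrays covered 11982 singly named genes, each represented by whichever of its probe sets had the highest mean over the 3 arrays. Counts of list members below cover names matched by symbol to a uniquely named probe set, such as 41 of the 92 ribosomal protein names. The others were not analysed here.

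Each sample was a mixture of all cell types of the embryo and spanned a window of hours, so a level is an average over cells and over ages. The labels number the 3 samples as replicates without stating if egg collections were separate, so the spread given below may be technical. With 1 group of samples there was no comparison to test, and all values are descriptions.

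At the start of this window the germ band, the segmented trunk of the embryo, is extended. Maternal messages have been largely replaced by zygotic ones, segment polarity genes maintain stripes, neuroblasts have delaminated and divide, and tracheal pits and salivary placodes invaginate. Muscle contraction, synapses, cuticle and digestive enzymes belong to later hours, and eggs, sperm and sense organs to the adult.

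Levels are log2 values from GCRMA, a method that subtracts background using probe sequence and brings arrays to a common distribution. The lowest value in the table was 2.2, and a gene was placed at the floor when it read 2.2 on all 3 arrays. A gene was called high at a mean of at least 12. Of the 11982 genes, 351 (2.93%) were high, 7976 (66.6%) were in the middle and 3655 (30.5%) were at the floor, with a median of 5.17. A middle reading was not always a clear signal: 445 middle genes had a mean of 2.3 or less, and 6047 were at 4 or more on every array.

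**Figure D1:**
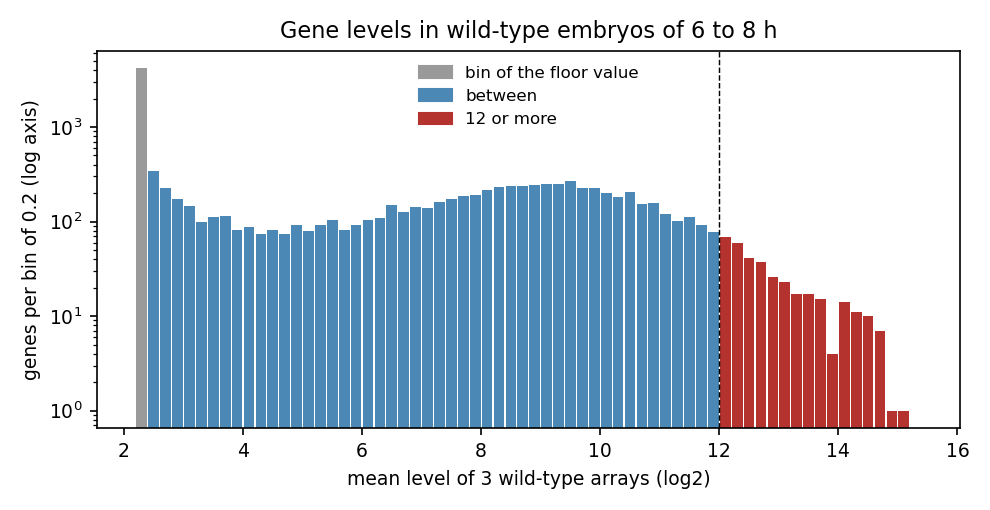
Number of genes per bin of 0.2 (vertical log axis) by mean log2 level over the 3 wild-type arrays (horizontal axis). A grey bin at the left holds the floor value 2.2, the middle genes form a broad hump around 9, and the 351 genes at 12 or more, right of the dashed line, form the thinning right tail.

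The mean ranks signals rather than transcript numbers, because probe sets differ in how well they bind and in which part of a transcript they read. For 605 genes that had several probe sets and a highest mean of at least 4, the highest and lowest probe sets of the same gene lay a median of 4.23 apart. In 38.7% of these genes 1 probe set was at the floor while another was not. By contrast, the median SD over the 3 arrays was 0.10 for probe sets above the floor. A low reading therefore bounds what 1 probe set saw and does not show that a gene is silent. A high reading likewise gives only the highest probe set. There were 42 genes with several probe sets and a highest mean of at least 12. In 30 of them (71.4%) the lowest probe set lay at least 4 below the highest, and the median difference was 8.37.

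Genes with a name were read more often than genes known only by a number. Of the 5219 genes with a CG or CR number as symbol, 36 (0.690%) were high and 43.2% were at the floor. Of the 6763 genes with another symbol, 315 (4.66%) were high and 20.7% were at the floor. Among the probe sets with no symbol at all, 146 were high (3.09%) and 76.0% were at the floor.

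The top of the ranking belonged to the ribosome. Of the 30 highest genes, 23 encoded ribosomal proteins, led by RpL41 at 15.1 on each array, RpL15 at 14.9 on each, and RpL39 and RpS28b at 14.8, 14.8 and 14.7. RpLP1, RpS18, RpL32, RpS27A, RpS29, RpL23, RpLP2, RpL36A, RpL29, RpS15, RpS21, RpS20, RpL10Ab, RpS7, RpL37A, RpS5b, RpL27, RpL3 and RpLP0 followed, all between 14.2 and RpL39. Of the 41 genes with a ribosomal protein name and a probe set of their own, 33 were high and the median was 14.2. They include genes named as like a ribosomal protein, such as RpL24-like.

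The other 7 of the 30 did varied work. The translation factor eEF5, which helps ribosomes through difficult peptide bonds, read 14.6, 14.5 and 14.5, and the RNA helicase eIF4A, which unwinds messages for initiation, read 14.3, 14.3 and 14.4. Sumo, a small protein attached to nuclear proteins, read 14.3 on each array, and betaTub56D, the main beta-tubulin of somatic cells, read 14.3, 14.3 and 14.2. Tctp, a conserved growth-related protein, and akirin, a nuclear cofactor of transcription, both read 14.2 on each array. The remaining member was Obp99a, of the family of odorant-binding proteins, secreted carriers of small hydrophobic molecules best known from adult antennae. It read 14.4, 14.5 and 14.4, rank 17 of 11982.

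Other basic machinery had more high members than the 2.93% of all genes in some lists and none in others. Translation factors had 15 of 23 members high and none below 9.9, with the elongation factor subunit eEF1gamma at 14 on each array and the poly(A)-binding protein pAbp at 13.6, 13.7 and 13.8. Histone variants and abundant nuclear proteins had 11 of 17 high with a median of 12.9. The histone variant His2Av read 14.1, 14.1 and 14, mod averaged 13.63, the AT-rich DNA-binding protein D1 averaged 13.60 and the histone chaperone Nph averaged 13.47. The chaperone Hsc70-4, the constitutive cytoplasmic member of the Hsp70 family, read 14.1, 14 and 14.1 (rank 38), and Droj2, Hsc70-3 and Hsc70-5 were also high at 12.63, 12.53 and 12.23. They were the 4 high chaperone genes of 21, and Hsc70-1 was at the floor. High cytoskeletal genes were 4 of 13. Among cytoskeletal genes tsr, the actin-severing cofilin, averaged 14.17, chic, the actin-binding profilin, averaged 13.57, and cpa, a subunit of the protein that caps actin filaments, averaged 12.07. Glycolytic genes were lower, with 0 of 11 high and a median of 6.93, headed by the aldolase gene Ald1 at 10.93, the enolase gene Eno at 9.13, Pgi at 8.4 and Gapdh1 at 7.4, and with Pglym87 at the floor.

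The class boundary at 12 lay on the falling side of the distribution, where no gap set the high genes apart. Just inside it lay HnRNP-K at 12 on each array, ATPsynE at 12, 12.1 and 11.9, and EMC4 at 12.1, 12.2 and 11.7. Just outside, with means of 11.97, lay Bub3 and Drsl5 at 12, 12 and 11.9 and Cont at 11.9, 11.9 and 12.1. These neighbours did not differ beyond their spread, and 337 of the 351 high genes were at 12 or more on every array.

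Stage markers were set beside the labelled age and fitted it in part. Those of adults and gametes, given in the next paragraph, do not tell embryo ages apart. Of 4 genes known from cellularization, nullo and bnk were at the floor, while Sry-alpha, a cytoskeletal regulator of that step, read 7.7, 7.8 and 7.7 and slam, which acts at the furrow, read 6.1, 6.1 and 6.0. At 8 or more were 0 of the 4 cellularization genes and 2 of 6 measured late differentiation markers, and all genes had a median of 5.17. Of 9 measured genes of the extended germ band, 8 were at 8 or more. These included the segment polarity factor en at 11 on each array, the glial switch gcm at 11 on each, the secreted signal hh at 9.1, 9.1 and 9.3, and the tracheal receptor btl at 8.2, 8.1 and 8.1. The exception was ptc, the Hedgehog receptor, at 3.6, 3.3 and 3.3.

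Later markers were split. The presynaptic genes nSyb and brp and the cuticle gene Cpr56F stayed between 2.3 and 2.4 on every array. The muscle myosin light chain Mlc1 read 8.4 on each array, Osi6, of a family of insect membrane proteins linked to cuticle, read 9.2, 9.1 and 9.1, and TwdlM, a cuticle protein gene, read 6.9, 7.0 and 7.0. Of 6 measured markers of adults and gametes, Acp26Aa, Mst84Da, Cp15 and Yp1 were at the floor on all arrays. The other two, the eggshell genes Cp36 and Vm26Aa, were between 2.2 and 2.4. In whole embryos fewer cells of a type and less RNA per cell cannot be told apart, which applies to every tissue list below.

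**Figure D2:**
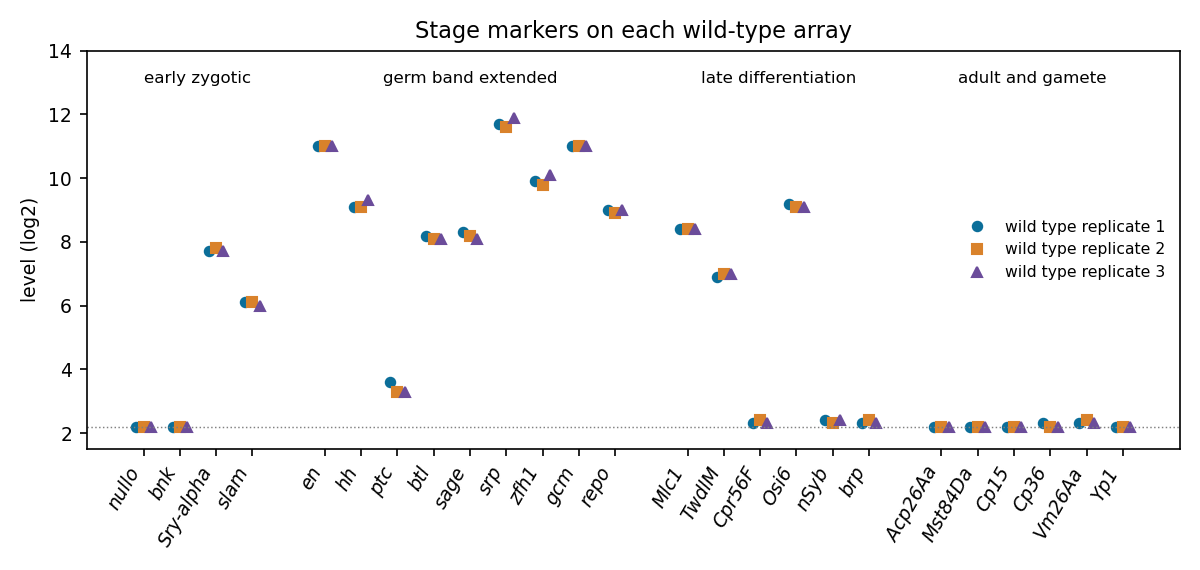
Log2 level of each stage marker on the 3 wild-type arrays (1 symbol per replicate), grouped by stage. The extended germ band genes sit at 8 or more apart from ptc at 3.3 to 3.6, the late genes fall into a low and a higher group, and the adult and gamete genes lie at 2.2 to 2.4.

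Genes listed for maternal or germ plasm messages were read unevenly, and a level does not tell maternal message from zygotic. Of 38 measured maternal and germ plasm genes 3 were high: CycB at 13.4, 13.3 and 13.5, zld, the pioneer factor that opens the zygotic genome, at 12.7, 12.5 and 12.9, and Tl, the receptor of the dorsoventral pathway, at 12.4, 12.4 and 12.6. The RNA-binding repressor smg, which directs clearance of maternal messages, averaged 11.8. The anterior determinant bcd read 9.4, 9.3 and 9.4, but its other probe set averaged 2.3. For osk, which organises germ plasm, the highest probe set read 7.3 on each array and the lowest averaged 4. The germ line helicase vas (2.9, 2.9 and 3.0) and dl, the dorsal transcription factor (3.6, 3.6 and 3.8), were near the bottom. The Toll-activating proteases ndl and gd were at the floor, and snk, another of them, averaged 2.27.

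Cellularization-stage genes had a median of 7.67 over 23 members. At the floor were 5 (21.7%, against 30.5% of all genes): bnk, nullo, Neu2, CG14427 and Z600. Z600 (frühstart) blocks mitosis in the early gastrula. The 3 high members were the peptidase gene Ance at 12.3, 12.3 and 12.2, the adaptor gene Traf4 at 12.2, 12.1 and 12.2 and the Bearded-family gene E(spl)m4-BFM at 12.1, 12.1 and 12.

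Segmentation genes were mostly read in the middle. All 15 gap and head gap genes lay between 7.3 and 11.63. The Sox factor D averaged 11.63, the POU factor nub 11.43 (2 of its 3 probe sets at the floor), hb 10.90 and kni 10.70. Among 7 pair-rule genes Ten-m was highest at 10.4, then odd at 10.13 and opa at 9.90. By contrast ftz averaged 7.13 and prd 5.17, with prd at 4.9, 5.1 and 5.5, and eve was lowest at 3.6, 3.6 and 3.7.

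Of 15 segment polarity genes 1 was high, the Hedgehog effector ci, at 12.8, 12.7 and 12.9. Next came wls, which carries Wingless to the cell surface, at 11.7 on each array, and the Wingless antagonist nkd at 11.4, 11.4 and 11.6. H15, a T-box gene, was at the floor. The Hedgehog pathway therefore held a high effector, ci, beside a receptor gene, ptc, that was read near the floor by its probe set. Among 8 Hox genes and cofactors tsh led at 11.2, disco followed at 10.13, Scr at 9.63 and Antp at 9.47, while pb averaged 3.07 and tio 2.63.

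Dorsoventral and Dpp pathway genes had a median of 9.70 over 29 members. The EGF receptor ligand spi was high at 13.1 on each array and so was put, a type II Dpp receptor, at 12.2, 12.2 and 12.3. The type I receptor tkv averaged 11.87, the signal transducer Mad averaged 11.53 and the ligand dpp averaged 9.73. At the floor were 5 members (17.2%, against 30.5% of all genes). They were zen, zen2, scw and tsg, which act in the blastoderm, and Med, the partner of Mad. Med was read by 1 probe set, at 2.2 on every array, while the receptors and Mad named above were at 11.53 or more.

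Early neurogenesis genes were read throughout. All 31 neuroblast and temporal factor genes were above 5.7, with a median of 10.7. The division regulator pros averaged 11.93 and the Sox factor SoxN 11.70. The neuroblast genes mira, wor, insc, dpn and ase, which sort determinants or keep the precursor state, averaged 11.53, 11.47, 10.90, 10.47 and 10.33. The factors of the temporal series, which ageing neuroblasts express in sequence, were all read in the middle by their highest probe sets. They were hb at 10.90, Kr at 10.47, nub at 11.43, pdm2 at 9.87, cas at 10.70 and grh at 11.90. Of the 3 probe sets of nub 2 were at the floor, and the other probe set of grh averaged 5.03. These factors also act in other tissues (hb, Kr and nub in segmentation, grh in epidermis), and whole embryos do not show which cells gave the signal.

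Proneural and sensory precursor genes had a median of 10.27 over 22 members. The high ones were emc, an inhibitor of proneural factors, at 13.3, 13.4 and 13.5, Brd at 13.2, 13.2 and 13.1, the ubiquitin ligase neur at 12.4, 12.5 and 12.8, and da, the common partner of proneural factors, at 12.3, 12.1 and 12.3. The bHLH proneural genes and their relatives were lower, with l(1)sc at 10.7, ac at 9.6, sc at 8.13, ato at 7.77, cato at 7.47 and amos at 3.67. Of these cato (7.6, 7.7 and 7.1) and ato (7.8, 7.8 and 7.7) lay within the spread of cato.

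The Notch pathway list held 6 high members of 24: Tom, BobA, Brd, neur, Ocho and E(spl)m4-BFM. It did not hold the Notch ligand gene Delta, which was also high. The 2 probe sets of Delta averaged 12.3 and 11.5. Tom read 14.1, 14.1 and 14 (rank 38), BobA read 13.9, 14 and 13.9 (rank 45) and Ocho read 12.1, 12.2 and 12. These are Bearded-family genes, small proteins that inhibit Neuralized and so restrain Notch signalling. Their relative E(spl)m6-BFM read 3.5, 4.0 and 3.5. The Notch-induced repressors of the E(spl) bHLH group were close together, with E(spl)m7-HLH at 11.97, E(spl)mdelta-HLH at 11.80, E(spl)m3-HLH at 11.73, E(spl)m5-HLH at 11.67 and E(spl)mbeta-HLH at 11.03. Wild-type insv, the gene mutated in the other arrays, read 10.9 on each.

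The neuron differentiation list of 44 had a median of 4.4, with 3 high. At the floor were 9 (20.5%), against 30.5% of all genes. At 4 or more were 23 (52.3%), against 6475 of all 11982 genes. The RNA-binding protein gene elav, the pan-neuronal marker, read 12.2, 12.1 and 12.3, and the axon guidance receptor fra read 12.1, 12.1 and 12.3. The ion pump subunit nrv2 read 12, 12.1 and 12. Guidance genes comm and robo1 averaged 11 and 10.93 and Dscam1 averaged 10.57. The guidance ligand sli was at the floor. The transmitter, receptor and channel genes named here had means from the floor to 4.7. The acetylcholine receptor subunit nAChRbeta1 read 5, 4.4 and 4.7, and the GABA-synthesising Gad1 averaged 3.9. The GABA receptor Rdl averaged 3.53 and the calcium channel cac averaged 3. Below them the transmitter genes ChAT, VAChT, VGlut and ple and the channel genes para, eag and Sh did not exceed 2.5 on any array, and nAChRalpha1 and sNPF were at the floor. Unlike these, the vesicle chaperone gene Csp averaged 11.57. Of 14 glial genes nrv2 was high and Gli (11.93), drpr (11.07), gcm (11) and loco (10.73) followed, with repo, the glial identity factor, at 8.97 and axo and sli at the floor.

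Among muscle lists the fusion genes had the highest median, while the order of muscle factors and contractile genes depended on the floor: their medians were 7.25 and 7.02 over all members, and 7.27 and 8 over members above the floor on every array. All 13 myoblast fusion genes were at 7.13 or more with a median of 10.07; the adaptor Crk was high at 12.1, 12.2 and 12.1, siz averaged 11.80, rst 11.53, SCAR 11.37, kirre 7.80 and sns 7.13. Mesoderm and muscle factors had a median of 7.25 over 26 members, led by srp (11.73), sna (10.67), Kr (10.47) and eya (10.23), and lbe was at the floor. Several leaders also act outside mesoderm, sna and Kr in the nervous system among them. Contractile and sarcomere genes had a median of 7.02, with the integrin linker rhea (11.90), the actin gene Act87E (11.23) and the integrin subunits mys and mew at the top. The flight muscle actin Act88F, Act79B, TpnC41C and fln, all best known from adult muscle, were at the floor.

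Blood cell and basement membrane genes covered almost the whole scale, with a median of 7.13 over 33 members. Nplp2, a secreted protein gene, read 13.4, 13.5 and 13.3. The laminin chains LanA (12.97), LanB2 (12) and LanB1 (11.80) and the matrix protein Ppn (11.83) came next, while the collagen IV chains Col4a1 and vkg averaged 7.20 and 7.17. The later blood cell markers eater, NimC1, He and PPO3 were at the floor and Hml averaged 2.27. Of 17 fat body and storage protein genes 8 (47.1%) were at 4 or more, against 6475 of all 11982 genes. At the floor were 7 (41.2%), against 30.5% of all genes, and the median was 2.3. The lipid carrier apolpp was high at 12.7, 12.7 and 12.8, and srp (11.73), larp (10.90) and the lipase bmm (10.37) followed. The storage protein gene Lsp2, Fbp1, Fbp2, Ilp2, Lip3, Yp1 and Yp2 were at the floor.

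In the tracheal list the nuclear factor rib, needed for branching in trachea and salivary gland, read 14.1, 14 and 14.2, rank 36 of all genes. The bHLH-PAS partner tgo read 12.1, 12.1 and 12.3, salm averaged 11.33 and vvl 11.03, against a list median of 7.77 over 20 members. The FGF receptor btl at 8.13 and its ligand bnl at 8.60 were well under these. In the salivary list of 17, rib, the translocon subunits Sec61beta (13.37) and Sec61alpha (12.03) and the innexin ogre (12.07) were high. The gland factors fkh (9.33) and sage (8.20) were in the middle.

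Epithelial genes separated junctions from cuticle. All 17 septate junction genes were at 9.4 or more with a median of 11.7, and 5 were high, headed by Lac at 13.1, 13.1 and 13.2, crok at 12.8, 13 and 12.6, Nrg at 12.1, 12.1 and 12.4 and l(2)gl at 12.1, 12.1 and 12.2. Septate junctions seal epithelia later in embryogenesis. The epidermis and cuticle list of 36 had a median of 4.07, led by the epidermal factors grh (11.90) and ovo (11.07) and the polarity genes sdt (10.83) and baz (10.50). Endoderm and gut genes had 0 of 29 high and a median of 6.23, led by srp, bowl (10.97), drm (10.77) and grn (10.40). The Malpighian tubule list had 1 high gene of 19, Vha16-1. The amnioserosa list had 1 of 23, the JNK kinase bsk at 12.27, with Stat92E (11.33) and dome (10.77) of the JAK/STAT pathway among its leaders, and a median of 9.67.

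All 31 cell cycle and replication genes were at 7.6 or more, with a median of 10.87. The high ones included CycB, the sliding clamp PCNA at 12.5, 12.5 and 12.3, CycB3 at 12.3, 12.2 and 12.3, the replication licensing factor dup at 12.2 on each array CycE at 12, 12.2 and 12.4 and the anaphase regulator fzy at 12.17. CycB was also the high member of the germ cell list, whose median over 20 was 7.58. Cell death genes had 0 of 9 high, with the caspase Dcp-1 at 10.77 the killer gene skl at 10.03, the apoptosome gene Dark at 9 and Dredd at 8.53. Among sex determination genes Sxl averaged 11.60, tra 10.03 and msl-2 8.4, while dsx averaged 3.27 and fru was at the floor. Insulator and BEN-domain factors had 1 high member of 17, Cp190 at 12.77, then Dref (11.77), Ibf2 (11.60) and BEAF-32 (11.23); Elba2 averaged 6.33 and Elba3 was at the floor. Ecdysone synthesis and response genes had 0 of 25 high, 6 at the floor (24%, against 30.5% of all genes) and a median of 5.93. The secreted insulin-binding protein ImpL2 averaged 11.2. The hormone receptor EcR read 9.1, 9.3 and 9.6 and its partner usp read 7.9, 7.9 and 8.0.

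**Figure D3:**
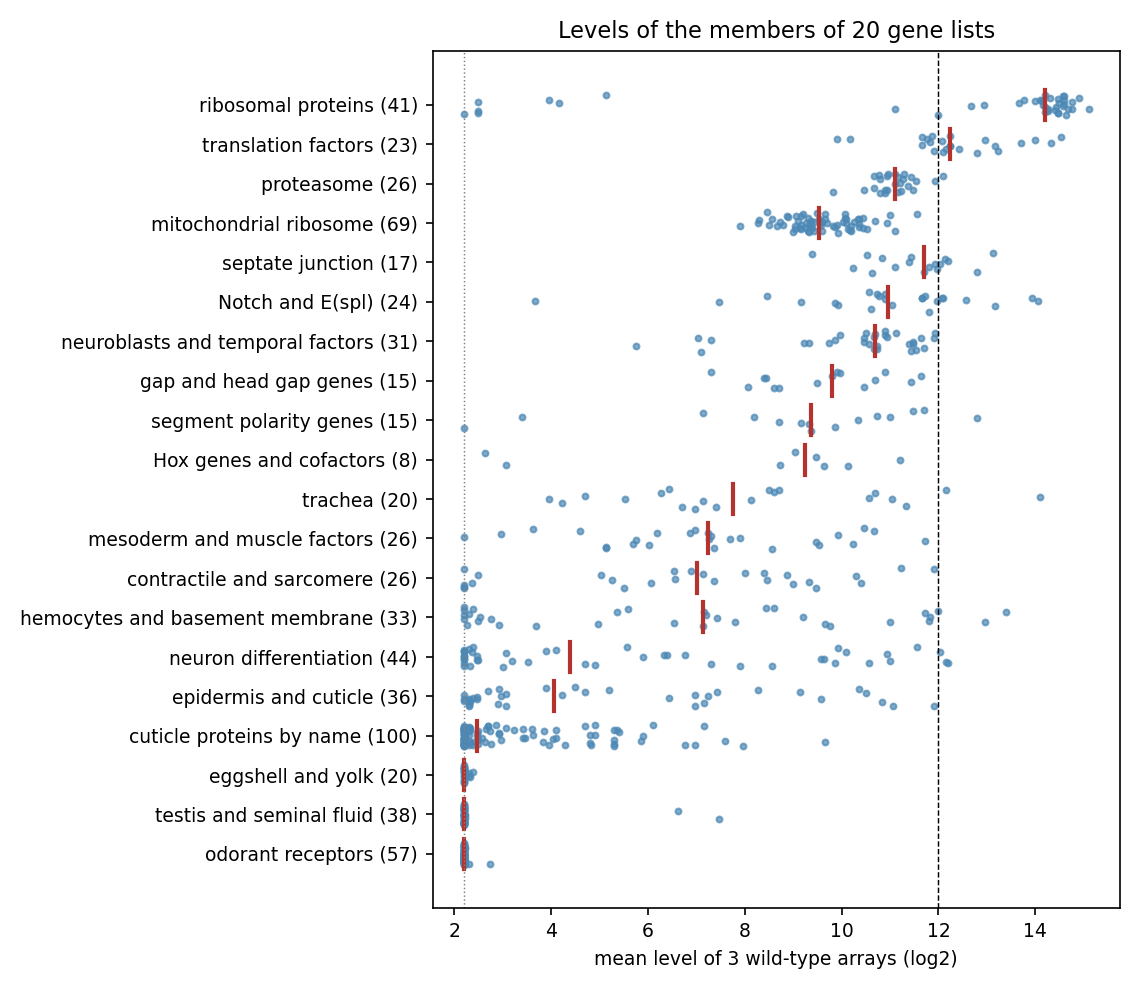
Mean log2 level of each measured member (points) of 20 of the gene lists, 1 row per list, with the list median as a red bar, the floor dotted and 12 dashed. Ribosomal proteins and translation factors lie at the right, and most neuroblast and septate junction genes lie between 9 and 13. The odorant receptor, eggshell and testis lists sit at the floor of 2.2 with isolated members above it.

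In several families of ribosomal proteins 1 copy was read high and a relative low, though other second copies were high too. RpL37-1 read 13.7, 13.8 and 13.8 against 4.9, 5.4 and 5.1 for RpL37-2. RpS28b averaged 14.77, against 2.5 for RpS28a. RpL10Ab averaged 14.4 and RpL10Aa was at the floor. RpS5b and RpL34a, also named with a letter, averaged 14.27 and 12.67. RpL24-like, RpL7-like and RpLP0-like averaged 12.93, 12 and 11.1, but such a name alone does not make a gene a second copy. RpL22-like, RpS10a and RpS19b averaged 2.5, 4.17 and 3.97, with their other copies not analysed here. Several of the low copies are known from the germ line or testis. Copies are read by different probes, so a difference between them mixes message and probe. The beta-tubulins were graded rather than split: betaTub56D averaged 14.27, betaTub60D 11.5, betaTub97EF 7.67, and the testis-specific betaTub85D was at the floor.

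In the respiratory chain 18 of 72 genes were high, headed by ND-MLRQ at 14, 14.1 and 14, COX8 (13.20), COX5A and COX7B (both 13). A second copy of a subunit gene is often named with an L after its partner's name, and these copies were picked out after their values were seen. Of 19 such copies measured, 16 were at the floor and the highest, ATPsynepsilonL, averaged 4.53. In all 13 pairs with a measured partner the partner was higher, by 4.3 to 10.73. ATPsynbeta averaged 12.2 and ATPsynbetaL was at the floor. COX4 averaged 12.67 and COX4L 3.3, and Cyt-c1 averaged 12.17 and Cyt-c1L 3.5. UQCR-11 was the lowest partner at 6.5, with UQCR-11L at the floor. The 53 other respiratory genes had a median of 11.17, and 50 of them were at 9 or more, so 16 of the 17 floor readings in the list came from the copies.

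The proton pump V-ATPase, which acidifies compartments, had 1 high gene of 31, and Vha26 followed at 11.97. Its 7 subunits with several gene copies had 23 copies, of which 10 were at 8 or more and 13 were under 3.2. In 5 of the 7 subunits exactly 1 copy was at 8 or more. Vha16-1, the ring subunit, read 12.8, 12.8 and 12.9 while Vha16-2 to Vha16-5 were all at the floor, and Vha14-1 (11.2), VhaPPA1-1 (11.27), Vha36-1 (10.43) and VhaAC39-1 (10.33) were the read copies of theirs. For the membrane subunit a, Vha100-1 averaged 9.97 and Vha100-2 8.5. Across these copies the readings fell either at 8 or above or near the floor, with none between.

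**Figure D4:**
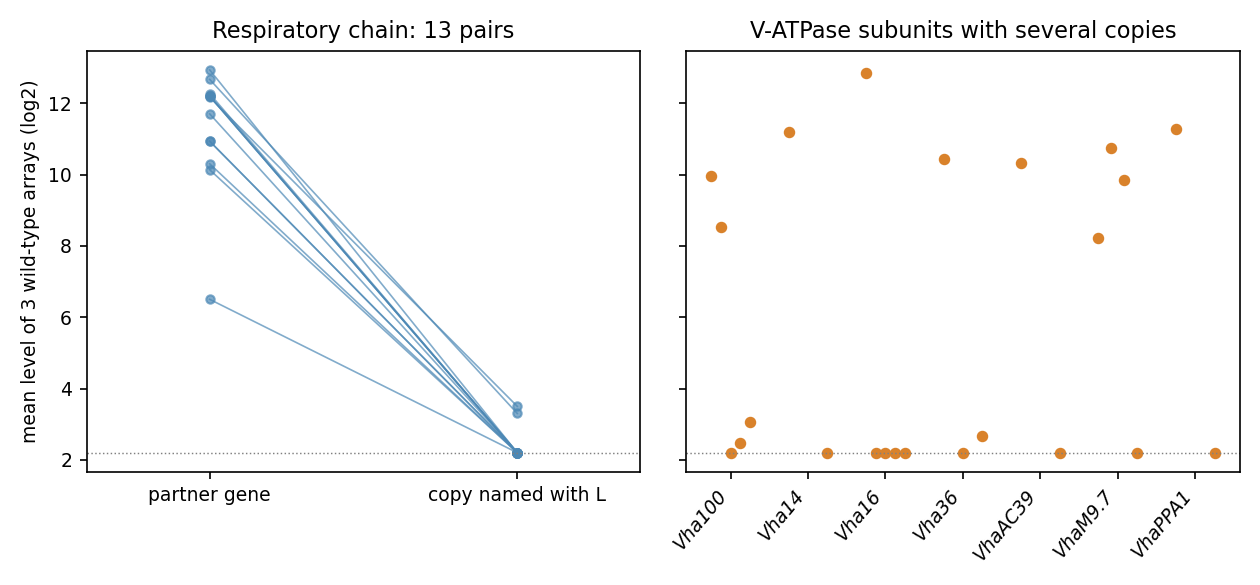
Mean log2 level of each main subunit gene and of its second copy, for the respiratory chain, and of each gene copy per V-ATPase subunit, over the 3 wild-type arrays. In all 13 respiratory pairs the partner lies above its copy, by 4.3 to 10.73, and V-ATPase copies fall at 8 or more or under 3.2.

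Proteins that work in 1 complex were read at similar levels in some complexes and not in others. The 26 proteasome genes spanned 9.83 to 12.1 with an SD over members of 0.452. The regulatory subunit Rpn6 was the only high one, at 12.1 on each array, then Prosbeta2 (11.93), Prosalpha7 (11.53) and Rpn12 (11.47). The 69 mitochondrial ribosomal protein genes spanned 7.9 to 11.57 with an SD of 0.721, led by mRpL30 (11.57), mRpS7 (11.10), mRpS5 (11) and mRpL36 (10.93). The SD of a typical member over the arrays was 0.0577 and 0.153 in these lists. The 15 aminoacyl-tRNA synthetase genes, which charge transfer RNAs, had 0 high, a median of 9.1 and an SD over members of 1.16, with IleRS (10.7), GlyRS (10.63), SerRS and TrpRS (both 10.33) at the top. Elsewhere single subunits fell far below their partners. The splicing factor Sf3a1 read 4.1, 4.1 and 4.2 in a spliceosome list of 31 with a median of 10.67 and 5 high members, the snRNP core genes SmD2 (12.83) and SNRPG (12.47) first and U2af50 (12.37) and Sf3b6 (12.20) next. Nup160, a scaffold nucleoporin, read 2.4, 2.3 and 2.2 where nucleoporins had a median of 9.62 and Nup153 (11.57) and Nup35 (11.47) led. The respiratory complex I genes ND-B8 and ND-B12 averaged 2.2 and 2.23. Each of these was read by 1 probe set, so a poor probe set and a scarce message could not be told apart here.

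Receptor families of taste and smell and genes of reproduction lay mostly at the floor. It was the reading for 53 of 57 odorant receptors, 51 of 56 gustatory receptors, 48 of 53 ionotropic receptors, 23 of 27 pickpocket channels, 34 of 38 testis and seminal fluid genes and 15 of 20 eggshell and yolk genes, against 30.5% of all genes. The highest odorant receptor, Or43b, averaged 2.73, and the highest gustatory receptor, Gr2a, averaged 2.47. Fcp3C, at 2.4 on each array, was the highest eggshell gene. Single members stood above their families. Ir68a read 5.2 on each array, ppk20 read 5.3, 5.5 and 5.3, mia, named for a male meiotic arrest, read 7.5, 7.3 and 7.6, and Acp95EF, named as an accessory gland peptide, read 6.8, 6.8 and 6.3.

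Odorant-binding proteins had 33 of 47 at the floor, with Obp99a far above the others and Obp99c next at 7.4, 7.5 and 7.0. Obp44a averaged 6.67 and Obp56a 6.2. In a list of antimicrobial peptide and peptidoglycan recognition genes 7 of 10 were at the floor, the antifungal peptide gene Drs among them, and the highest was the amidase PGRP-SC2 at 4.5, 4.6 and 4.7, followed by PGRP-LB at 2.67. The list did not hold the drosomycin-like genes. Of these Drsl5, named above, read 12, 12 and 11.9, Drsl4 read 3.5 on each array and Drsl3 and Drsl6 were at the floor. Photoreceptor genes had 8 of 19 at the floor, nearer to the share of all genes, and 3 at 4 or more, the highest being the pigment transporter bw at 5.17 and the kinase rdgA at 4.07.

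Detoxification and cuticle families had low medians and a few strong members. Of 80 cytochrome P450 genes 28 were at the floor, a share near the 30.5% of all genes, but their median was 2.38 against 5.17 over all genes. Cyp6a8 read 11.8, 11.8 and 11.7, Cyp6d5 read 11.8, 11.7 and 11.7 and Cyp6d2 read 11.8, 11.9 and 11.5, with Cyp310a1 next at 9.4. The UDP-glycosyltransferase Ugt35D1 averaged 11.37 where its family had a median of 2.33, and the tetraspanin Tsp42Ee averaged 11.53 where its family had a median of 3.37. GstE6, a glutathione transferase, averaged 10.93 against a family median of 4.62. Of 100 cuticle protein genes 35 were at the floor, again near 30.5%, and the median was 2.47. The 25 at 4 or more were led by Lcp65Ag3 at 9.6, 9.6 and 9.8, Cpr47Eg at 7.97 and Cpr51A at 7.6. Among 23 Osiris genes Osi6 (9.13) and Osi15 (7.07) stood highest and 11 were at the floor. The gut protease Jon99Fi read 8.3 on each array in a family with a median of 3.38.

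Genes of 1 class tended to lie side by side on the chromosomes. Over 11899 genes in RefSeq order, the next measured gene was at the floor for 48.3% of floor genes, against 30.2% of all genes, and it was high for 27 of 350 high genes (7.71%), against 2.95%. Neighbours can share probes or ancestry, so these are descriptions. The longest run of high genes had 4 members, BobA, Tom, Brd and Ocho, all members of the Bearded gene complex. The ferritin subunit genes Fer1HCH (13.3, 13.3 and 13.2) and Fer2LCH (12.5, 12.5 and 12.4) were a high pair. There were 11 runs of 10 or more floor genes, holding 142 genes. The longest had 16, and 1 of these included ProtA and ProtB, the sperm protamines. A run of 15 held the Eig71E cluster, known as ecdysone-induced genes of late larvae.

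Replicates were close. For probe sets above the floor the median SD was 0.10 and the 95th percentile 0.289, and 1406 (13.5%) had the same value on all 3 arrays, since values were deposited with 1 decimal. The range over arrays reached 0.5 in 887 (8.50%) and 1 in 72. The spread depended on level: the median SD was greatest, 0.173, between 4 and 5, and 0.0577 at 14 or more. High probe sets had 3 of 518 with a range of 0.5 or more and 0 with a range of 1. Across the 7829 probe sets with a mean of at least 4 the correlation was 0.998 for arrays 1 and 2, 0.996 for 1 and 3 and 0.995 for 2 and 3; probe sets are not independent replicates.

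The widest ranges among genes with a mean of at least 6 were modest. CG17786 read 6.8, 5.9 and 6.7 and FASN1, a fatty acid synthase, read 6.5, 5.8 and 6.6, both low on replicate 2. The POU factor vvl read 10.7, 10.9 and 11.5 and the ubiquitin ligase Trc8 read 9.0, 9.3 and 9.8, both highest on replicate 3. A second probe set did not show either difference: it read 7.1, 7.0 and 7.2 for vvl and 8.9, 8.8 and 8.8 for Trc8. CG9932 was also highest on replicate 3 and UK114, a conserved small enzyme, lowest there. CG30265, CG3862, CG12708 and CG12279 completed the 10 widest.

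Replicate 3 stood apart slightly but in whole gene groups. Among 6475 genes with a mean of at least 4, it was the single highest array for 26.0% and the single lowest for 33.4%, and its median difference from the mean of the other two was 0. For mitochondrial ribosomal protein genes it was lowest for 61 of 69 (88.4%) and highest for 0, with a median difference of -0.25. Glutathione transferases (16 of 19 lowest, 0 highest, median -0.30) and the respiratory chain (37 of 52 lowest, 0 highest, median -0.15) went the same way. The opposite held for neuron differentiation genes, where replicate 3 was highest for 14 of 23 and lowest for 0, with a median difference of 0.15. It was also highest for 13 of 21 blood cell and basement membrane genes, 8 of 13 fusion genes, 11 of 17 septate junction genes and 13 of 21 amnioserosa genes. These lists were singled out after their values were seen.

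Control probe sets moved between arrays as well. The 24 probe sets for Bacillus transcripts added as spike-ins were highest on replicate 3 in 24 of 24, with medians of 8.2, 8.15 and 9. The 18 hybridisation controls of bacterial and phage origin were highest on replicate 1 in 18 of 18, with medians of 10, 9.65 and 9.40. The 3 probe sets for 18S ribosomal RNA were highest on replicate 3 in 3 of 3, with medians of 13.3, 13.2 and 13.8. The 5′ minus 3′ difference, a measure of RNA integrity and labelling reach, was -3.03 ± 0.15 for actin, -4.03 ± 0.06 for eIF-4a and -1.90 ± 0.17 for GAPDH (SD, n = 3). The part of these control differences in the group shifts of replicate 3 was not tested.

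**Figure D5:**
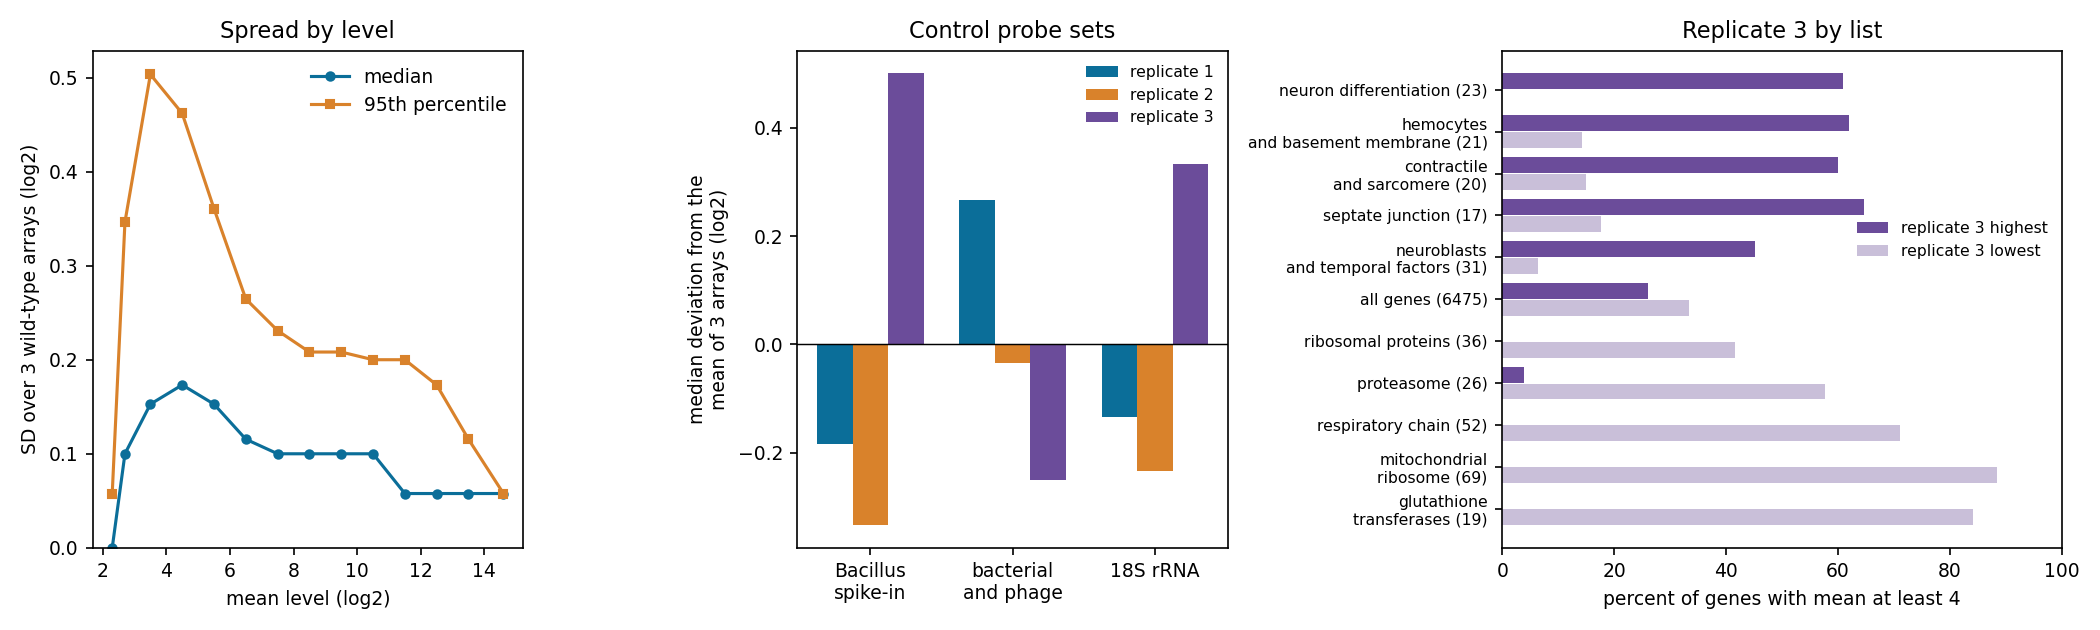
Left, median and 95th percentile of the SD over the 3 wild-type arrays by mean log2 level; middle, median deviation of control probe sets from their mean on each replicate; right, share of genes in chosen lists for which replicate 3 was the highest or the lowest array, with the number of genes in brackets. The spread peaks between 3 and 5, Bacillus spike-ins and 18S rRNA are highest on replicate 3, and mitochondrial and neuronal lists fall on opposite sides of all 6475 genes.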

How the data were processed

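Total RNA of 3 wild-type embryo samples was read on 1-colour arrays. The submitters' processing notes name GCRMA as what the authors used for the deposited log2 values, with version and options not given in the sources used here. Each array had 18952 probe sets, of which 183 were controls. The platform annotation paired 13647 of the remaining 18769 with 1 gene symbol, 402 with several and 4720 with none; 13544 symbols were updated through RefSeq (Release 6 plus ISO1 MT), used only for names and gene order. There were 0 unused value columns. The values were used unchanged. Medians were 2.4 on each array, and 7821 to 7883 probe sets per array were at 4 or more; the number of arrays limits the precision. A gene is its probe set with the highest mean.

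The 59 gene lists, 20 of them by symbol pattern, and the choice of samples were made with earlier results of these data known. Named were the 30 highest genes, the 10 widest ranges at a mean of at least 6, the 3 genes nearest 12 on each side, and of each list the 4 highest members and any in another class than most (in part given as counts); all other genes named were chosen after their values were seen. Ties were taken alphabetically. Python 3.11.15, pandas 2.3.3 and numpy 2.4.6 were used. A separate copy of the class rule was run on simulated data with the classes set well apart. That run could not test readings near the floor or near 12. Alternatives were each array left out, other thresholds, and other ways to represent a gene. The planned promoter motifs and protein lengths were not used here.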

Additional observations from a re-analysis of the deposited data

How the results depend on the processing

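The counts of probe sets were 518 high, 9912 middle and 8339 at the floor. Leaving out each array in turn gave 521 to 524 high, 9767 to 9799 middle and 8449 to 8478 at the floor. With 1 probe set per gene 3655 were at the floor. The high count was 1125 at a mean of at least 11 and 210 at a mean of at least 13. Quantile normalization left 518 high and 9912 middle, and the median SD between arrays stayed at 0.10. The deposited values already had the same median, 2.4, and highest value, 15.1, on each array, so this step could change little. Leaving out an array moved the median of a gene list by -0.13 to 0.16. Taking a gene's lowest probe set moved 10 of 59 list medians by over 1, the Hox list to 5.9. Leaving out members at the floor moved 7, the fat body list to 9.4. No paired analysis was possible because only 1 group of samples was described and no result came from a test.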
